A study of Mus musculus with 22 samples.

Results

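The 10 genes Nefl, Nefm, Nefh, Tubb3, Stmn2, Thy1, Rbpms, Sncg, Snap25 and Uchl1 are used as markers of retinal ganglion cells and of axon-bearing neurons. They were chosen by their gene symbol, and all 10 were found among the 29367 genes of the count table. RNA was pulled down with HA-tagged ribosomes and sequenced from the optic nerve head (ONH, the unmyelinated part of the nerve just behind the eye) and the optic nerve proper (ONP, the adjoining myelinated part). All mice carried the ribotag allele of Rpl22 (B6J.129(Cg)-Rpl22tm1.1Psam/SjJ, homozygous for the HA tag) together with the GFAP-Cre transgene of line 73.12Mvs/J, both bred on C57Bl/6, were 3 to 4 months old, and had 1 eye injected with microbeads to raise the intraocular pressure (IOP). The mouse Gfap promoter drives the Cre constitutively, so the tag marks cells that express or once expressed the transgene. The groups were the ONH and the ONP at 7 days after injection (4 libraries each) and at 30 days (7 libraries each), 22 libraries in all. A library is a pool from 4 mice (2 of each sex). ONH and ONP were dissected from the same mice, but which ONH and ONP libraries share mice is not known from the labels, and the tests between regions treat them as separate. Uninjected mice (0 days) were not analysed here, so every comparison below is between injected animals.

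A retinal ganglion cell has its soma in the retina and sends its axon through the ONH and the ONP to the brain. Neurofilaments, the intermediate filaments of large axons, are built from a light, a medium and a heavy chain and set the calibre of the axon. Most axonal protein is made in the soma and carried down the nerve, so the nerve itself holds axons but not ganglion cell bodies. Loss of Thy1, Rbpms, Sncg and neurofilament expression is a familiar readout of ganglion cell injury in glaucoma models. The question put to these genes was how much of their mRNA came down with the astrocyte ribosomes, in which region and at which time.

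Nefl, Nefh and Uchl1 were higher in the ONH than in the ONP at both days and Nefm at 30 days. Tubb3 was lower in the ONH at both days. Between 7 and 30 days Nefl, Nefm and Nefh fell in the ONP while Sncg rose there. Nefh was close to the limit of detection in the ONP at 30 days (1 to 19 counts per library), so its size of change is uncertain. The fall of Nefm did not pass the threshold without the ONP library 1 at 7 days. Over time in the ONH, 0 of the 10 genes passed the threshold, and 0% of all 15668 genes tested did. Levels are given as CPM (a gene's counts scaled to a common library size by edgeR's TMM method). Differences were tested with edgeR (quasi-likelihood), p-values were adjusted by Benjamini and Hochberg's method across the whole table with a threshold of 0.05, and log2FC is the log2 fold change with its standard error (SE). The p-values measure the spread between pools of mice, not between single animals.

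Libraries held 16292489 to 33307092 counts, and the detection floor of 3 counts lay at 0.0901 to 0.184 CPM. All 10 genes passed the filter on low counts in every comparison. Astrocyte markers were abundant in every library, with Gfap at 8781 to 23057 CPM. Markers of other cells were also present: 12 oligodendrocyte markers summed to 13948 to 42098 CPM in the ONH libraries and to 26326 to 109161 CPM in the ONP libraries. The sum of 14 photoreceptor markers was 132 to 6259 CPM in the ONH and 6.26 to 143 CPM in the ONP, and it exceeded 1000 CPM in 3 ONH libraries (30 days replicate 4, 7 days libraries 5 and 6), which are called the photoreceptor-high libraries here. Of the markers of ganglion cell bodies, the transcription factor Pou4f2 was listed at 0 in 21 of the 22 libraries and reached 0.12 CPM in the other. Pou4f1 was above 3 counts in 8 of the 11 ONH libraries, with up to 2.37 CPM, and in 3 of the 11 ONP libraries. The vesicular glutamate transporter Slc17a6 was listed at 0 in 4 of the 11 ONH libraries, with up to 2.91 CPM in the others, and in 9 of the 11 ONP libraries. Pou4f1 and Slc17a6 were thus low but detected in most ONH libraries and near the detection limit in most ONP libraries. Other ganglion cell markers were mostly near that limit in the ONH too. Pou4f3, Isl2 and Eomes were at or under 3 counts in 9 of the 11 ONH libraries. The same held for Opn4 in 8, Chrna6 in 7 and Isl1 in 6 of them. Nrn1 was above 3 counts in 10 of the 11, and Rbpms2 and Tppp3 in all 11. The genes below are described by name and not as a ganglion cell signal. In pulled-down RNA of mixed tissue, fewer cells of a type and less RNA per cell cannot be told apart.

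To compare different genes, CPM were divided by the length of the union of a gene's exons and are given per kilobase (kb). The highest of the 10 in the ONH was Uchl1, a ubiquitin hydrolase abundant in neurons, with 147 ± 31.3 CPM per kb at 30 days (SD, n = 7) and 110 ± 41.9 at 7 days (SD, n = 4). Tubb3, the neuron-enriched beta-tubulin, was the next in the ONH with 26.4 ± 11.9 CPM per kb at 30 days, and it was the highest of the 10 in the ONP with 60.9 ± 30.1 at 30 days and 114 ± 41.7 at 7 days. Nefl followed in the ONH with 8.02 ± 4.37 CPM per kb at 30 days, then Nefh with 4.88 ± 2.72. Stmn2, at 0.608 ± 0.466, was the lowest of the 10 there. The order differed in the ONP at 30 days, where Sncg came after Tubb3 and Uchl1 with 6.33 ± 0.864 CPM per kb and Nefh ranked last with 0.0924 ± 0.0581.

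**Figure D1:**
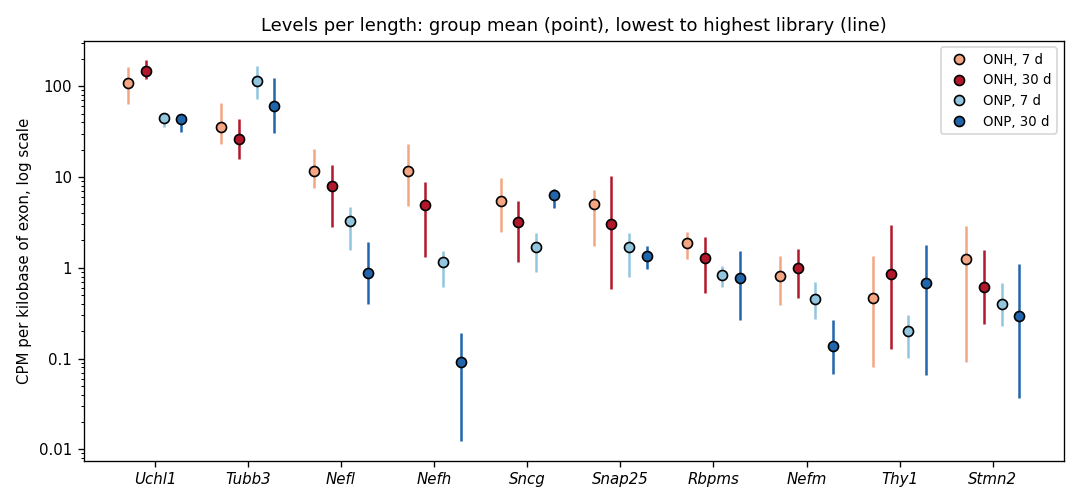
Group means of the 10 genes in CPM per kilobase of exon (log scale), with a line from the lowest to the highest library of each group. Uchl1 and Tubb3 lie above the other genes in all 4 groups, and the group means of Nefh run from 11.6 CPM per kb in the ONH at 7 days to 0.0924 in the ONP at 30 days.

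Nefl encodes the light chain of the neurofilament, the core on which the other chains assemble. The gene lies on chromosome 14 at 68083863 to 68089095 (GRCm38, plus strand). In the ONH at 7 days it stood at 68.3, 33.2, 31.1 and 25.9 CPM in the 4 libraries, and in the ONP at 15.8, 8.27, 15.1 and 5.25 CPM. At 30 days the ONH libraries ran from 9.45 to 45.6 CPM with a median of 25.2, and the ONP libraries from 1.36 to 6.51 CPM with a median of 2.53. Every ONH library was above every ONP library of the same day. The log2FC of ONH vs ONP was 3.20 (SE 0.42, edgeR adjusted p = 3.64e-05) at 30 days, a 9.17-fold difference, and 1.86 (SE 0.42, adjusted p = 0.0147) at 7 days, where the adjusted p was 0.0568 without the ONP library 2. In the ONP Nefl fell from 7 to 30 days, with a log2FC of -1.94 (SE 0.42, adjusted p = 0.0101), and 6 of the 7 ONP libraries at 30 days lay below all 4 at 7 days.

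Nefm encodes the medium chain. It lies beside Nefl on the opposite strand of chromosome 14, at 68082590 to 68124846, and 1108 exon bases are shared by both genes, out of 3380 for Nefl and 5782 for Nefm. The libraries do not keep the strand, so reads from the shared bases cannot be told apart. Per kb Nefm was below Nefl in all 22 libraries and below Nefh in 17 of them. It stood at 3.61, 2.27, 7.81 and 5.27 CPM in the ONH at 7 days and at 4.05, 1.59, 3.36 and 1.57 CPM in the ONP. At 30 days it ran from 2.70 to 9.23 CPM (median 4.83) in the ONH and from 0.39 to 1.55 CPM (median 0.68) in the ONP. The groups were fully separate at 30 days and overlapped at 7 days. ONH vs ONP gave a log2FC of 2.85 (SE 0.36, edgeR adjusted p = 2.54e-05) at 30 days and of 0.86 (SE 0.53, adjusted p = 0.319) at 7 days. In the ONP Nefm fell from 7 to 30 days, with a log2FC of -1.76 (SE 0.43, adjusted p = 0.0173) and no overlap between the days, and without the ONP library 1 at 7 days the adjusted p was 0.058.

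Nefh encodes the heavy chain, the last of the chains to be added as an axon matures, and lies on chromosome 11 at 4938754 to 4948064 (minus strand). The 4 ONH libraries at 7 days held 91.3, 32.7, 42.3 and 19.1 CPM, against 6.13, 2.48, 4.84 and 5.10 CPM in the ONP. At 30 days the ONH ran from 5.29 to 35.5 CPM (median 22.1) and the ONP from 0.049 to 0.76 CPM (median 0.39). The ONP values at 30 days correspond to 1 to 19 counts per library, with 2 of the 7 libraries at or under 3 counts, so there the gene was close to the limit of detection and it passed the filter on low counts through the other group of each comparison. ONH vs ONP gave a log2FC of 5.67 (SE 0.51, edgeR adjusted p = 9.53e-07) at 30 days and 3.34 (SE 0.48, adjusted p = 0.0016) at 7 days, with no overlap at either time. In the ONP the log2FC of 30 vs 7 days was -3.66 (SE 0.50, adjusted p = 0.0011) with no overlap. The size of the values that involve the ONP at 30 days rests on these low counts and is uncertain.

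**Figure D2:**
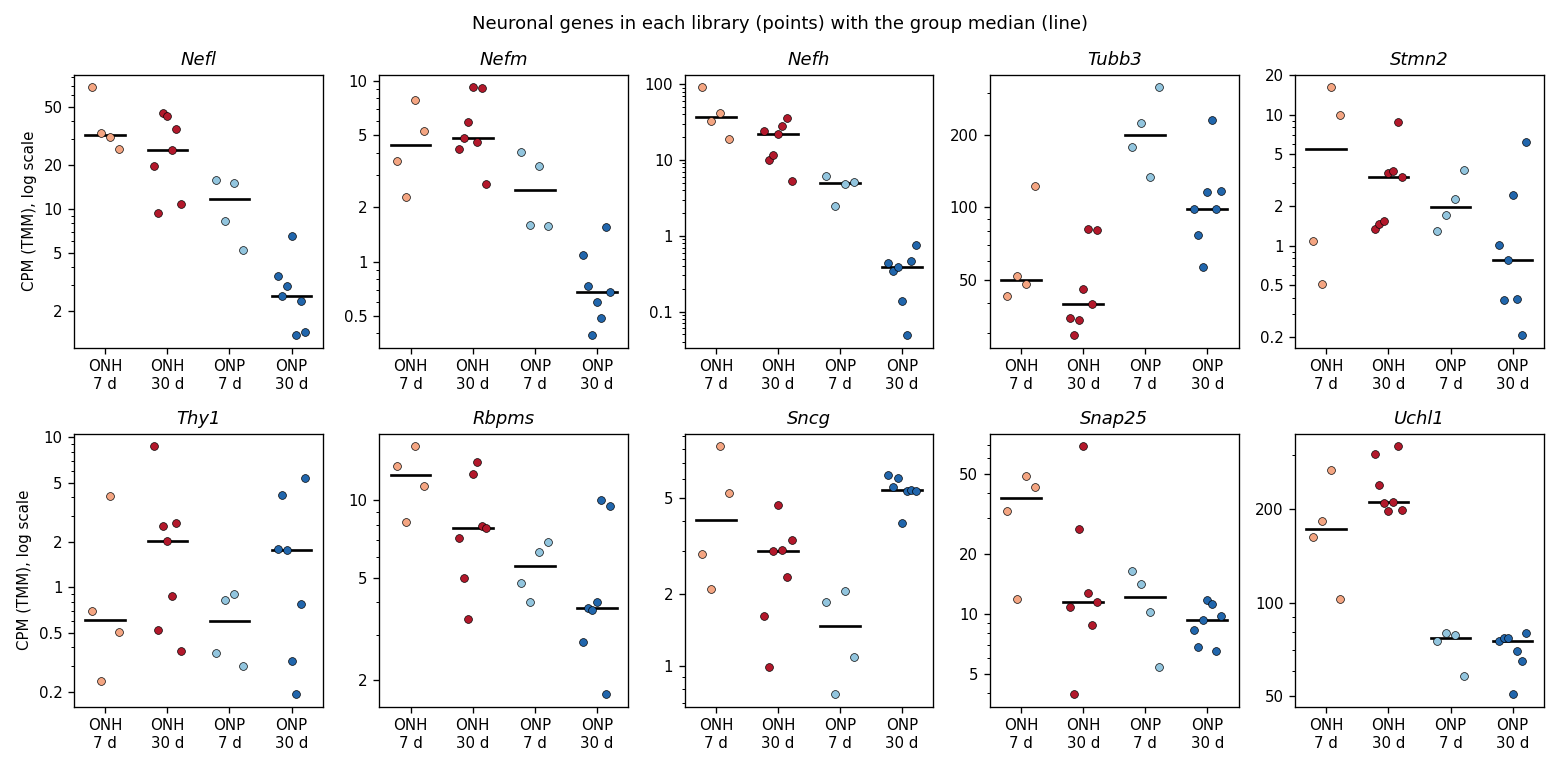
CPM of the 10 genes in each library (log scale, 1 panel per gene), by region and day, with a line at the group median. The 3 neurofilament genes step down from the ONH to the ONP at 30 days, Tubb3 is higher in the ONP, Uchl1 lies at 103 to 320 CPM in the ONH and 50.6 to 79.9 CPM in the ONP, and Sncg in the ONP is at 0.76 to 2.05 CPM at 7 days and 3.92 to 6.21 CPM at 30 days.

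Per kb, Nefl exceeded Nefm in all 22 libraries, with a median ratio of 7.25. Nefl and Nefh were about level in the ONH, with a median ratio of 1.04 at 7 days and 1.18 at 30 days. In the ONP Nefl was in excess, with a median Nefl to Nefh ratio of 3.36 at 7 days and 8.95 at 30 days. The regions overlapped in this ratio on both days, with 0.87 to 1.602 in the ONH and 1.22 to 3.94 in the ONP at 7 days, and 0.976 to 4.65 and 2.24 to 55.5 at 30 days. No test of the ratios was made, and those of the ONP at 30 days rest on as few as 1 count of Nefh.

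Uchl1, on chromosome 5 at 66676091 to 66687234 (plus strand), shares 295 of its 1632 exon bases with the antisense gene Uchl1os. In the ONH it stood at 163, 183, 268 and 103 CPM in the 7 day libraries and at 197 to 320 CPM (median 211) at 30 days. In the ONP the 7 day libraries held 75.1, 79.5, 78.5 and 57.9 CPM, and the 30 day libraries 50.6 to 79.9 CPM (median 75.0). The ONP values of both days overlapped, and every ONH library was above them. The log2FC of ONH vs ONP was 1.76 (SE 0.13, edgeR adjusted p = 2.19e-07), or 3.38-fold, at 30 days and 1.32 (SE 0.26, adjusted p = 0.0084), or 2.50-fold, at 7 days. Uchl1 stayed the steadiest of the 10 genes among the ONH libraries at 30 days, with an SD of 21.3% of its mean. Without the photoreceptor-high libraries the log2FC was 1.80 (adjusted p = 4.90e-07) at 30 days and 1.25 (adjusted p = 0.0016) at 7 days.

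Counted over the 10 genes, ONH vs ONP at 30 days gave 4 higher (Nefl, Nefm, Nefh, Uchl1) and 2 lower (Tubb3, Sncg). Nefh is counted here although it was close to the limit of detection in the ONP at 30 days. Over all 15133 genes tested there, 41.8% passed the threshold, 21.8% as higher and 20.0% as lower, so a count of 6 in 10 is to be read against a background in which a large share of all genes differed. Groups that did not overlap were found for 4 of the 10 genes, all higher in the ONH, beside 9.27% of all genes higher and 7.08% lower. At 7 days 5 genes were higher in the ONH (Nefl, Nefh, Rbpms, Snap25, Uchl1) and 1 was lower (Tubb3), against 13.2% of all 14752 genes tested, 6.34% as higher and 6.81% as lower. No overlap at 7 days was seen for 5 genes higher and 1 lower in the ONH, against 9.90% and 11.8% of all genes. The median log2FC of the 10 genes was 1.11 at 30 days and 1.45 at 7 days, beside -0.0050 and 0.068 over all genes tested. The 30 day and 7 day comparisons share no library.

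**Figure D3:**
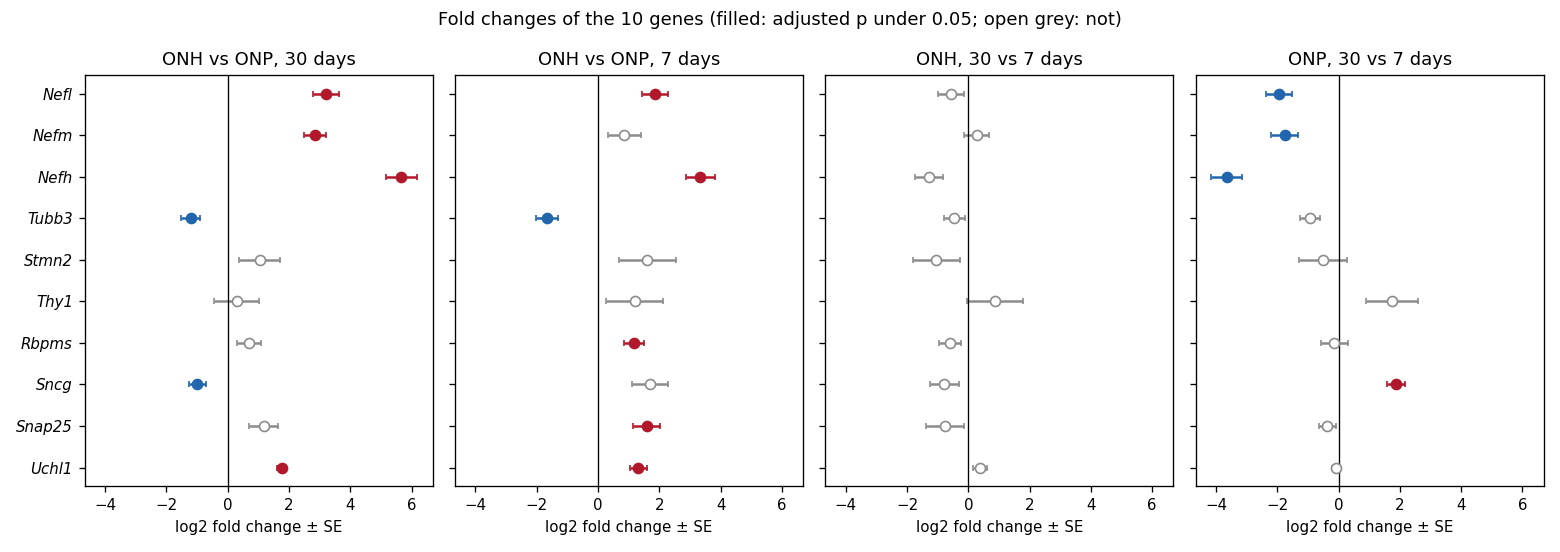
Log2 fold changes with their standard errors for the 10 genes in 4 comparisons, filled where the adjusted p-value was under 0.05 and open where it was not. Nefl, Nefh and Uchl1 are filled on the right in both comparisons of ONH vs ONP, and no gene is filled in the ONH for 30 vs 7 days.

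Tubb3, on chromosome 8 at 123411424 to 123422015 (plus strand), encodes a beta-tubulin that is often used as a pan-neuronal marker and belongs to a family of closely related tubulin genes whose reads can be hard to assign. The ONH libraries at 7 days held 42.9, 52.1, 48.1 and 123 CPM and the ONP libraries 178, 223, 134 and 316 CPM. At 30 days the ONH ran from 29.5 to 81.1 CPM (median 39.6) and the ONP from 56.9 to 232 CPM (median 99.0). The groups were separate at 7 days and overlapped in 2 ONH libraries at 30 days. ONH vs ONP gave a log2FC of -1.20 (SE 0.30, edgeR adjusted p = 0.0050) at 30 days and -1.66 (SE 0.37, adjusted p = 0.0145) at 7 days. In the ONP the log2FC of 30 vs 7 days was -0.93 (SE 0.32, adjusted p = 0.0673), and DESeq2 gave an adjusted p of 0.0336. Without the ONP replicate 5 at 30 days, the highest of its group, edgeR's adjusted p was 0.0067.

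Between the regions Tubb3 differed in the opposite direction to Nefl and Nefh and in the same direction as most oligodendrocyte markers. Of the 12 oligodendrocyte markers, 10 were lower in the ONH than in the ONP at 30 days and 12 at 7 days, and 9 fell in the ONP from 7 to 30 days. Divided by the summed oligodendrocyte markers of the same library, Tubb3 at 30 days stood at 1.96 ± 0.406 CPM per 1000 CPM of markers in the ONH (SD, n = 7) and 2.09 ± 0.331 in the ONP. At 7 days the same quotient was 2.51 ± 0.70 in the ONH and 2.23 ± 0.614 in the ONP (SD, n = 4 each). The 4 groups overlapped on this scale. At 30 days Nefl so divided was 1.29 ± 1.02 in the ONH and 0.062 ± 0.036 in the ONP. Nefl was higher in the ONH and the markers were higher in the ONP, so the division could only widen its difference. The quotients do not tell where either mRNA came from. What part oligodendrocyte RNA had in the Tubb3 values was not tested.

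**Figure D4:**
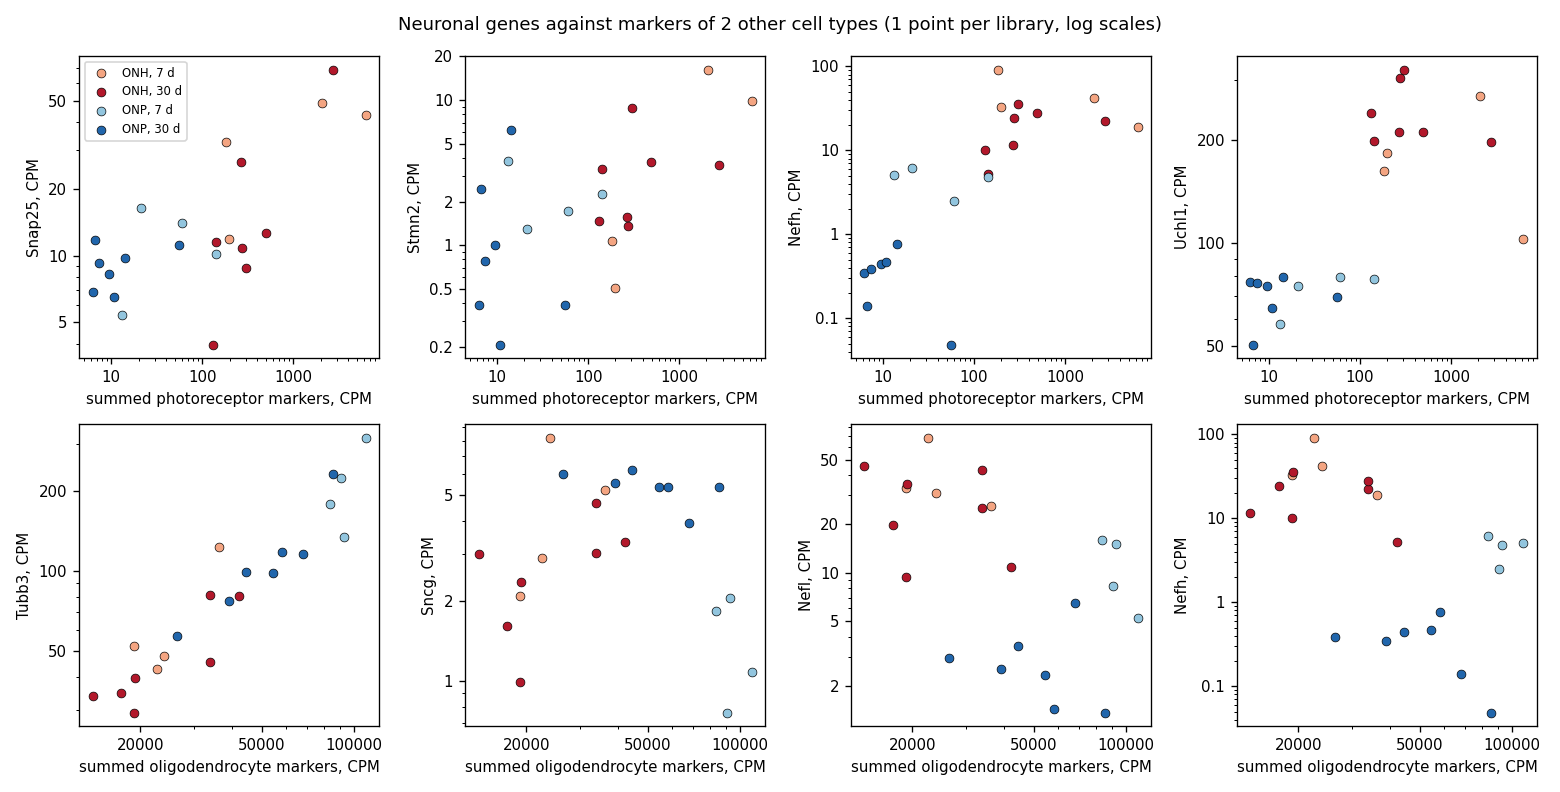
CPM of 7 of the 10 genes against the summed CPM of 14 photoreceptor markers (upper row) or 12 oligodendrocyte markers (lower row), 1 point per library, all axes on log scales. The 3 ONH libraries with more than 1000 CPM of photoreceptor markers hold the 3 highest Snap25 values, and Tubb3 climbs with the oligodendrocyte markers from 29.5 to 316 CPM across the 4 groups.

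Stmn2 encodes a stathmin that binds tubulin dimers in growing and regrowing axons (chromosome 3, 8509360 to 8561606, plus strand). It passed the threshold in none of the 4 pairwise comparisons nor in the difference between regions. Its unadjusted p was 0.107 or higher throughout, and DESeq2 did not call it either. The 7 day ONH libraries held 1.08, 0.51, 16.2 and 9.93 CPM, and the last 2 values are those of the photoreceptor-high libraries 5 and 6. The 7 day ONP libraries ran from 1.29 to 3.78 CPM, and at 30 days the ONH ran from 1.35 to 8.82 CPM and the ONP from 0.21 to 6.23 CPM. ONH vs ONP at 7 days had a log2FC of 1.61 (SE 0.92, edgeR adjusted p = 0.273), and without the photoreceptor-high libraries the sign turned, to -1.53 (adjusted p = 0.234). That fit left out the highest Stmn2 values of its group, so a lower log2FC was fixed in advance. At 30 days limma-voom with quality weights gave 1.68 (adjusted p = 0.0296), and leaving out the ONP replicate 7 gave 1.95 (adjusted p = 0.0166).

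Snap25 encodes a SNARE protein of synaptic vesicle fusion that is present in ganglion cells as well as in photoreceptor and other retinal terminals (chromosome 2, 136713453 to 136782428, plus strand). In the ONH at 7 days it stood at 32.6, 11.8, 48.9 and 43.0 CPM and in the ONP at 16.4, 14.1, 10.2 and 5.40 CPM. At 30 days the ONH ran from 3.97 to 68.9 CPM (median 11.5) and the ONP from 6.52 to 11.7 CPM (median 9.26). The ONH values were wide and contained the ONP values at 30 days. The 3 highest Snap25 values of the 22 libraries were in the 3 photoreceptor-high libraries. ONH vs ONP gave a log2FC of 1.58 (SE 0.45, edgeR adjusted p = 0.0420) at 7 days and 1.17 (SE 0.48, adjusted p = 0.0600) at 30 days, the latter called by DESeq2 (adjusted p = 0.0298). Without the photoreceptor-high libraries the log2FC was 0.94 (adjusted p = 0.230) at 7 days and 0.45 (adjusted p = 0.290) at 30 days. These fits left out the highest Snap25 values of the ONH on each day, so a smaller log2FC was fixed in advance. At 7 days they left 2 ONH libraries. The call at 7 days was lost in 7 of the 8 fits that left out 1 library, with adjusted p of 0.0575 to 0.115.

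Rbpms encodes an RNA-binding protein used to count ganglion cells in retinal flat mounts and also expressed by vascular smooth muscle and other cells (chromosome 8, 33782643 to 33929863, minus strand). The 7 day ONH libraries held 13.6, 8.25, 16.3 and 11.4 CPM and the ONP libraries 4.78, 4.01, 6.28 and 6.86 CPM. At 30 days the ONH ran from 3.46 to 14.1 CPM (median 7.77) and the ONP from 1.76 to 10.03 CPM (median 3.81). The groups were separate at 7 days and overlapped broadly at 30 days. The log2FC of ONH vs ONP was 1.19 (SE 0.33, edgeR adjusted p = 0.0365) at 7 days and 0.70 (SE 0.39, adjusted p = 0.164) at 30 days. The call at 7 days was lost in 6 of the 8 fits that left out 1 library (adjusted p 0.0657 to 0.106) and without the photoreceptor-high libraries (0.99, adjusted p = 0.114). Limma-voom called the difference at 30 days (log2FC 1.14, adjusted p = 0.0245).

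Thy1 encodes a GPI-anchored surface protein of ganglion cells and other projection neurons (chromosome 9, 44043384 to 44048579, plus strand). It was the lowest gene of the 10 per kb at 7 days, and it passed the threshold in no comparison. The 7 day libraries ran from 0.24 to 4.05 CPM in the ONH and from 0.30 to 0.90 CPM in the ONP, and the 30 day libraries from 0.38 to 8.76 CPM in the ONH and from 0.19 to 5.35 CPM in the ONP. Single libraries set the top of these ranges, the 7 day ONH library 5 and the 30 day ONH replicate 1. The log2FC of ONH vs ONP was 0.29 (SE 0.74, edgeR adjusted p = 0.779) at 30 days and -0.47 (adjusted p = 0.630) without ONH replicate 1. In the ONP the log2FC of 30 vs 7 days was 1.74 (SE 0.84, adjusted p = 0.170).

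Sncg encodes gamma-synuclein, a small protein abundant in ganglion cell bodies and axons (chromosome 14, 34370274 to 34374789, minus strand). It was the 1 gene of the 10 that rose in the ONP. The 7 day ONP libraries held 1.84, 0.76, 2.05 and 1.09 CPM, and the 30 day ONP libraries 3.92 to 6.21 CPM with a median of 5.38 and an SD of 13.6% of the mean. The 7 day ONH libraries held 2.91, 2.09, 8.21 and 5.22 CPM, and the 30 day ONH libraries 0.99 to 4.67 CPM with a median of 3.01. All 7 ONP libraries at 30 days were above all 4 at 7 days, and 6 of the 7 ONH libraries at 30 days lay below every ONP library of that day. The log2FC in the ONP was 1.87 (SE 0.29, edgeR adjusted p = 0.0020), or 3.67-fold, and it was called in all 11 fits that left out 1 library. ONH vs ONP was -0.99 (SE 0.29, adjusted p = 0.0113) at 30 days and 1.69 (SE 0.58, adjusted p = 0.0830, DESeq2 0.0201) at 7 days. Without the photoreceptor-high libraries the 7 day value was 0.79 (adjusted p = 0.482) and the 30 day value -1.18 (adjusted p = 0.0040). Those libraries held the highest Sncg values of the ONH on each day, so lower values were fixed in advance. Counts behind these values were low, with 12 to 50 per library in the ONP at 7 days and 85 to 142 at 30 days.

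In the ONP from 7 to 30 days, 3 of the 10 genes fell (Nefl, Nefm, Nefh) and 1 rose (Sncg). Of all 15491 genes tested 17.0% passed the threshold, 9.21% as lower and 7.82% as higher. Nefh is counted here although it was close to the limit of detection at 30 days. Groups that did not overlap were seen for 2 genes lower and 1 higher, against 5.79% and 6.20% of all genes. The other 6 genes had edgeR adjusted p-values of 0.0673 to 0.857, with log2FC from -0.93 to 1.74. The median log2FC of the 10 genes was -0.43, beside -0.0081 over all genes. The ONP libraries at 30 days also enter ONH vs ONP at 30 days, so the fall of the neurofilaments over time and their larger difference between regions at 30 days rest in part on the same 7 libraries. The photoreceptor marker sum was 13.3 to 143 CPM in the ONP at 7 days and 6.26 to 55.3 CPM at 30 days, and 3 of the 8 photoreceptor markers tested fell. Of the 12 oligodendrocyte markers 9 fell, with a median log2FC of -0.84, and of 12 astrocyte markers 1 rose and 1 fell. Of the 8 markers of endothelial and mural cells 3 fell (Pecam1 by 2.70, Cldn5 by 1.89 and Rgs5 by 1.66 on the log2 scale) and the median log2FC was -1.38. Their part in the fall of the neurofilament genes was not tested.

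In the ONH from 7 to 30 days, 0 of the 10 genes were called by edgeR, and 0% of all 15668 genes tested. Groups that did not overlap were found for 0 of the 10, beside 1.76% of all genes higher and 0.530% lower. DESeq2 also called 0 of the 10, while calling 446 genes over the whole table (2.48%). Without adjustment 1 of the 10 and 2179 of all genes fell under 0.05. That gene was Nefh, with a log2FC of -1.28 (SE 0.47, edgeR adjusted p = 0.268). The log2FC of the other 9 lay between -1.05 and 0.87. The variation between libraries was largest in this comparison, with a biological coefficient of variation of 48.2%, against 35.0% for the ONP over time.

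Whether the change from 7 to 30 days differed between regions was tested as an interaction over all 22 libraries. Sncg was the 1 gene of the 10 called, with the ONP change exceeding the ONH change by a log2 of 2.66 (SE 0.56, edgeR adjusted p = 0.0321, DESeq2 3.94e-04), against 0.543% of all 16748 genes tested, 0.149% in this direction and 0.394% in the other. The ONH change of Sncg itself was -0.78 (SE 0.47, adjusted p = 0.470). The interaction was lost, with adjusted p of 0.0545 to 0.0917, without the ONP replicates 1, 3 or 6 at 30 days or the ONP libraries 1, 2 or 6 at 7 days, and was 1.99 (adjusted p = 0.0530) without the photoreceptor-high libraries. For the neurofilaments the ONP change was lower than the ONH change by a log2 of -1.36 (SE 0.64, adjusted p = 0.384) for Nefl, -2.03 (SE 0.61, adjusted p = 0.133) for Nefm and -2.37 (SE 0.71, adjusted p = 0.133) for Nefh. DESeq2 called Nefm (adjusted p = 0.0422) and Nefh (adjusted p = 0.0403), against 1.30% of all genes called lower by that tool. That the neurofilament genes passed the threshold over time in the ONP and not in the ONH is thus not shown by edgeR to be a difference between the regions.

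Other genes of axons and ganglion cells did not form 1 pattern. Of 12 further genes of the axonal cytoskeleton, 5 were higher and 4 lower in the ONH than in the ONP at 30 days, with a median log2FC of 0.13. The higher ones were the anterograde motor Kif5a (log2FC 2.40, SE 0.20, edgeR adjusted p = 4.87e-07), Dclk1, Prph, Mapk8ip2 and Dpysl3, and the lower ones were the microtubule proteins Mapt (-0.54), Map2 (-0.83) and Tubb2b (-0.91) and the growth cone protein Gap43 (-0.87). At 7 days 3 were higher and 3 lower. In the ONP from 7 to 30 days Kif5a (-2.15, SE 0.20, adjusted p = 2.63e-04), Map1b (-0.83), Dclk1 (-0.73) and Mapt (-0.66) fell and Stmn3 (0.54) rose.

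Of 15 further ganglion cell markers, 4 had enough counts for the test at 30 days and 2 of these were higher in the ONH. They were Tppp3 (log2FC 0.68, SE 0.11, edgeR adjusted p = 2.32e-04), a microtubule-binding protein present at 877 to 2145 CPM in every library, and Nrn1 (1.74, SE 0.60, adjusted p = 0.0299), a growth factor at 0.0487 to 2.74 CPM whose adjusted p was 0.0595 without the photoreceptor-high library. Of 4 tested at 7 days, 0 were called, and so were 0 of 4 in the ONP over time. Of the genes of the axon membrane and node, 5 of 11 tested were lower in the ONH at 30 days, 5 of 10 at 7 days and 0 were higher at either time. They include Nfasc (-2.20 at 7 days), Cntn2 (-2.19) and Kcna1 (-2.11), of which Nfasc and Cntn2 are also made by oligodendrocytes. In the ONP from 7 to 30 days 4 of 13 fell (Nfasc, Cntn2, Kcna1, Ank3).

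Presynaptic genes were mixed as well, with Sv2b, Syt1 and Cplx2 higher and Syn1 and Syn2 lower in the ONH at 30 days. Sv2b, a synaptic vesicle glycoprotein, was the most different of these, with a log2FC of 4.06 (SE 0.28, edgeR adjusted p = 9.11e-08) at 30 days and 2.34 (SE 0.27, adjusted p = 4.48e-04) at 7 days. Of the genes induced by axon injury, 4 of 7 tested were higher in the ONH at 30 days (Ecel1, Ddit3, Tnfrsf12a, Jun) and 1 was lower (Sox11). Ecel1, an endopeptidase induced in injured neurons, had a log2FC of 5.05 (SE 0.54, adjusted p = 5.32e-06). From 7 to 30 days in the ONH 0 genes of these 5 lists were called.

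To find which genes ran most like the 10, the log2 CPM of the 10 were scaled to unit spread and averaged in each library, and every other gene was ranked by Pearson's correlation with that average over the 22 libraries, as a description with no test. Of the 10, Nefh (r = 0.82), Nefm (0.81) and Nefl (0.79) lay closest to their common average, Sncg (0.12) and Tubb3 (-0.42) far from it. The 8 nearest of 16738 other genes were Cplx4 (r = 0.93), Nrl (0.91), Eva1b (0.91), Guca1a (0.90), Gngt1 (0.90), Gm17231 (0.90), Pde6g (0.90) and Ier2 (0.89). Nrl, Guca1a, Gngt1 and Pde6g are genes of the rod and cone phototransduction program, and Cplx4 is a complexin of retinal ribbon synapses. Pde6g stood at 118 CPM on average in the ONH at 7 days, 46.0 in the ONH at 30 days, 3.07 in the ONP at 7 days and 0.46 in the ONP at 30 days, which is the order of the groups for Nefl and Nefh too. The 22 points fall into 4 groups, and part of each r comes from the groups' shared order. With each group's mean removed first, the r of these 8 genes was 0.65 to 0.79. Most of the 8 were then no longer among the 8 nearest, nor were most with Spearman's rho. Of the 10 genes Sncg had the highest r with group means removed (0.75), with 0.41 for Nefl and 0.53 for Nefh.

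All 13 photoreceptor markers tested were higher in the ONH at 30 days (median log2FC 5.97), and 11 of 12 were at 7 days (5.35). Of the Müller glia markers 5 of 6 were higher in the ONH at 30 days (median log2FC 2.20) and 4 of 5 at 7 days (1.51). Over all genes 21.8% were higher at 30 days and 6.34% at 7 days. In the ONP Nrl (0.061 CPM) and Gngt1 (0.075) at 30 days and Crym (0.086) at 7 days averaged under the detection floor. Such markers passed the filter on low counts through the ONH, so a call of higher was nearly fixed for them. The part of either set of markers in the differences of the 10 genes was not tested. Within the ONH, the 7 day library 1 held 91.3 CPM of Nefh and 182 CPM of photoreceptor markers, the lowest sum of its group. The 7 day library 6 held 19.1 CPM of Nefh with 6259 CPM of markers. At 30 days the values, in falling order of the markers, were as follows, and their relation was not tested. Replicates 4, 5, 6 and 1 held 2739, 497, 303 and 274 CPM of markers with 22.1, 27.9, 35.5 and 24.0 CPM of Nefh. Replicates 3, 7 and 2 held 267, 142 and 132 CPM of markers with 11.6, 5.29 and 10.1 CPM of Nefh. Uchl1 was lowest of the ONH libraries in the 7 day library 6, at 103 CPM. Without the photoreceptor-high library at 30 days, ONH vs ONP was 3.04 for Nefl (edgeR adjusted p = 9.88e-05), 2.70 for Nefm (7.30e-05) and 5.64 for Nefh (3.65e-06). Without those at 7 days, which left 2 ONH libraries, it was 2.19 for Nefl (adjusted p = 0.0123), 3.73 for Nefh (8.41e-04) and -2.17 for Tubb3 (0.0035). The differences of Nefl, Nefh, Tubb3 and Uchl1 between regions passed the threshold with and without those libraries. Those of Snap25 and Rbpms at 7 days did not without them. The ONH libraries that remained still held 132 to 497 CPM of photoreceptor markers, against 6.26 to 143 CPM in the ONP. These fits therefore cannot tell what part photoreceptor RNA had in the differences, and that part was not tested.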

How the data were processed

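mRNA on HA-tagged ribosomes was immunoprecipitated, reverse transcribed from oligo-dT, amplified and sequenced as paired reads of 150 bases without strand. The authors deposited expected counts per gene as whole numbers, quantified with Salmon 0.14.2 on Ensembl 94 in a pipeline that also aligned to mm10 with STAR 2.6.1d, and log2 values from DESeq2 1.34.0, which were not used here. The 22 libraries held 16292489 to 33307092 counts, and counting floors cover counting error only. The counts were fitted with edgeR 4.0.16 (filterByExpr, TMM, quasi-likelihood test) in R 4.3.3, per pair of groups, adjusted by the Benjamini-Hochberg method. The script was tested on simulated data. DESeq2 1.42.0, limma 3.58.1, other scalings and filters, a replicate block and leaving out each library were alternatives. Exon lengths were matched for 29351 of 29367 genes. The named genes are the 10 genes, listed genes that passed the threshold or lead their list in CPM, and the 8 most alike genes. The genes and lists were chosen with earlier results of these data known. Leaving out the photoreceptor-high libraries was chosen after seeing the data. Single values of some listed genes are not reported here.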

Additional observations from a re-analysis of the deposited data

Results flagged for a closer look

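Of 40 combinations of gene and group, 9 held a library far from the rest of its group, and chance alone gives about 1 in 20. In the ONH at 30 days these were Snap25 in replicate 4 (68.9 CPM), which also held 2739 CPM of photoreceptor markers, Stmn2 in replicate 6 (8.82 CPM) and Thy1 in replicate 1 (8.76 CPM). In the ONP at 30 days they were Nefl in replicate 4 (6.51 CPM), Tubb3 in replicate 5 (232 CPM), which also held the highest oligodendrocyte marker sum of its group, Stmn2 in replicate 7 (6.23 CPM) and Sncg in replicate 4 (3.92 CPM, below the rest). In the ONH at 7 days they were Tubb3 in library 6 (123 CPM) and Thy1 in library 5 (4.05 CPM).

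The change of Sncg from 7 to 30 days differed between regions, by a log2 of 2.66 (SE 0.56, edgeR adjusted p = 0.0321). The call was lost in 6 of the 22 fits that left out 1 library. Without the photoreceptor-high libraries the value was 1.99 (edgeR adjusted p = 0.0530). The cause of the difference was not tested.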

How the results depend on the processing

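Of the 10 genes, 2 in place of 4 were higher in the ONH at 30 days, and 1 in place of 3 fell in the ONP, with at least 10 counts required in every library, which removes Nefh and Nefm from the test. At 7 days 2 to 5 were higher when 1 library was left out and 3 without the photoreceptor-high libraries. For the difference between regions over time 0 were called higher with limma-voom, with no filter beyond 1 count and without the photoreceptor-high libraries, 0 to 1 when 1 library was left out, and DESeq2 called 2 lower. Of the 8 most alike genes 3 were kept with Spearman's rho and 2 with group means removed. Signs turned only where the threshold was not passed. Thy1 turned at 30 days with limma-voom (-0.012) and without ONH replicate 1 (-0.47 to 0.72 over the libraries left out), and at 7 days without the photoreceptor-high libraries (-0.37) and over libraries left out (-0.32 to 1.54). Stmn2 turned at 7 days with limma-voom (-0.042) and without the photoreceptor-high libraries (-1.53), and in the ONH over time (0.31 and 2.06). Tubb3 in the ONH over time reached 0.045 without those libraries and -0.64 to 0.026 over libraries left out. In the ONP over time Rbpms ran from -0.36 to 0.017 and Uchl1 was 0.037 on library size alone. In the difference between regions Stmn2 was -1.67 with limma-voom, -1.47 with the replicate block, -2.55 without the photoreceptor-high libraries and -0.32 to 1.0 over libraries left out. Thy1 there was -0.70 without those libraries and -0.63 to 1.63 over libraries left out, and Rbpms was -0.10 with limma-voom. The cause was not tested. The methods do not tie replicate numbers to mice across regions. At 30 days deviations of same-numbered ONH and ONP libraries correlated at 0.0767 to 0.471, and 3 of 7 numbers correlated best with their own. With the number as a replicate block 4 of the 10 genes were again higher and 2 lower (highest adjusted p of these 6, edgeR: 0.0172 for Sncg), and Nrn1 had 1.91 (adjusted p = 0.0554). At 7 days no block was fitted, because the columns were matched to their group only.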
